A study of Mus musculus with 6 samples.

Results

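Branched-chain amino acid catabolism and the clearance of D-2-hydroxyglutarate were examined through 7 genes, Bcat1, Bcat2, Bckdha, Bckdhb, Dbt, Bckdk and D2hgdh, taken by symbol from the 25140 genes listed for the series. All 7 were listed and all passed the filter on low counts, as did 14334 genes in all. The series is RNA-seq of primary cardiac fibroblasts from adult hearts of C57BL/6 mice at passage 1, which asked how transcription differs once fibroblasts are driven towards myofibroblasts. Every culture was grown in DMEM with 25 mM glucose and 10% FBS and was held in 1% FBS for 16 h before treatment. The 16 h is from the labels, while the methods of the study give 1% FBS from 24 h before treatment and during it. The TGFβ group (3 libraries) then received 10 ng/mL TGFβ, the cytokine that induces the contractile, matrix-secreting myofibroblast, for 24 h, and the vehicle group (3 libraries) did not. The labels and the methods of the study name cardiac fibroblasts, while the study's results describe MEFs, that is, embryonic fibroblasts. The libraries are labelled as biological replicates, but how many animals the cultures came from is not given in the sources used here.

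Leucine, isoleucine and valine are first transaminated, the cytosolic enzyme BCAT1 or the mitochondrial enzyme BCAT2 moving the amino group onto α-ketoglutarate to give glutamate and a branched-chain keto acid. The keto acids are then committed to oxidation by the mitochondrial branched-chain keto acid dehydrogenase complex, whose E1 component is built of BCKDHA and BCKDHB and whose E2 core is DBT. BCKDK, a kinase, inactivates that complex, and D2HGDH, a mitochondrial flavoenzyme, oxidizes D-2-hydroxyglutarate back to α-ketoglutarate, the cosubstrate of the dioxygenases that demethylate histones and DNA.

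The libraries held between 27851677 and 31072338 counts over all genes, and no library stood apart from its group (mean correlation of log2(CPM + 1) across genes of 0.9959 to 0.9966 within groups and 0.9793 to 0.9829 between them). Between TGFβ and vehicle, the quasi-likelihood test of edgeR, with p adjusted by Benjamini-Hochberg over all 14334 genes, called 40.7% of them at an adjusted p under 0.05, 20.5% higher and 20.1% lower with TGFβ, so a call by itself was common. Expression is given in CPM, the counts of a gene per 1000000 counts of its TMM-scaled library. All 4 myofibroblast markers (Acta2, Tagln, Postn and Cnn1) were higher with TGFβ, their sum running from 2920 to 3360 in vehicle and from 6940 to 7680 with TGFβ. The 9 fibroblast markers summed to between 35700 and 40900 in vehicle and between 40000 and 43500 with TGFβ. Of these, 6 were lower with TGFβ and 0 were higher, while Col1a1 (20000 ± 1520 and 23500 ± 1270 CPM) and Col1a2 (13700 ± 884 and 15000 ± 673 CPM, SD, n = 3), which make up most of the sum, did not pass the threshold. Sums of other markers were 949 to 1180 in vehicle and 989 to 1160 with TGFβ for endothelial cells, 241 to 344 and 209 to 312 for leukocytes, 38.6 to 59.5 and 27.3 to 40.3 for cardiomyocytes, 224 to 255 and 115 to 142 for pericytes, and 24.6 to 83.7 and 16.1 to 41.6 for mesothelial cells. In vehicle most of the pericyte sum was Notch3 (207 CPM, 57.3 CPM with TGFβ), while Cspg4 went from 19.5 to 53.3 CPM. Single genes were also the largest part of the endothelial sum (Eng, 520 CPM in vehicle and 608 CPM with TGFβ), the leukocyte sum (Lyz2, 232 and 202 CPM) and the cardiomyocyte sum (Tnnt2, 46.7 and 34 CPM). Among those 5 lists Eng and Cspg4 were higher, Notch3 was lower, no other tested marker passed the threshold, and Cd3e was not listed. Myh6, Actc1, Ryr2, Myl2, Pln and Cd79a did not pass the filter on low counts and were not tested. The part of these cells in the results for the 7 enzymes was not tested.

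With TGFβ, Bcat1 more than doubled, Bcat2 and Bckdhb fell by smaller amounts, and the other 4 enzymes did not pass the threshold. In numbers, 1 of the 7 rose, where 20.5% of all tested genes did, and 2 fell, where 20.1% did. The libraries of the groups did not overlap for these 3 of 7 enzymes, as was the case for 53.3% of all tested genes (27.2% with TGFβ higher, 26.1% with TGFβ lower). The median log2 fold change of the 7 was -0.08 and the median size was 0.11, against 0 and 0.21 over all tested genes, with 5 of the 7 values below 0. In bulk RNA, fewer expressing cells and less RNA per cell cannot be told apart, which holds for each difference given here.

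**Figure D1:**
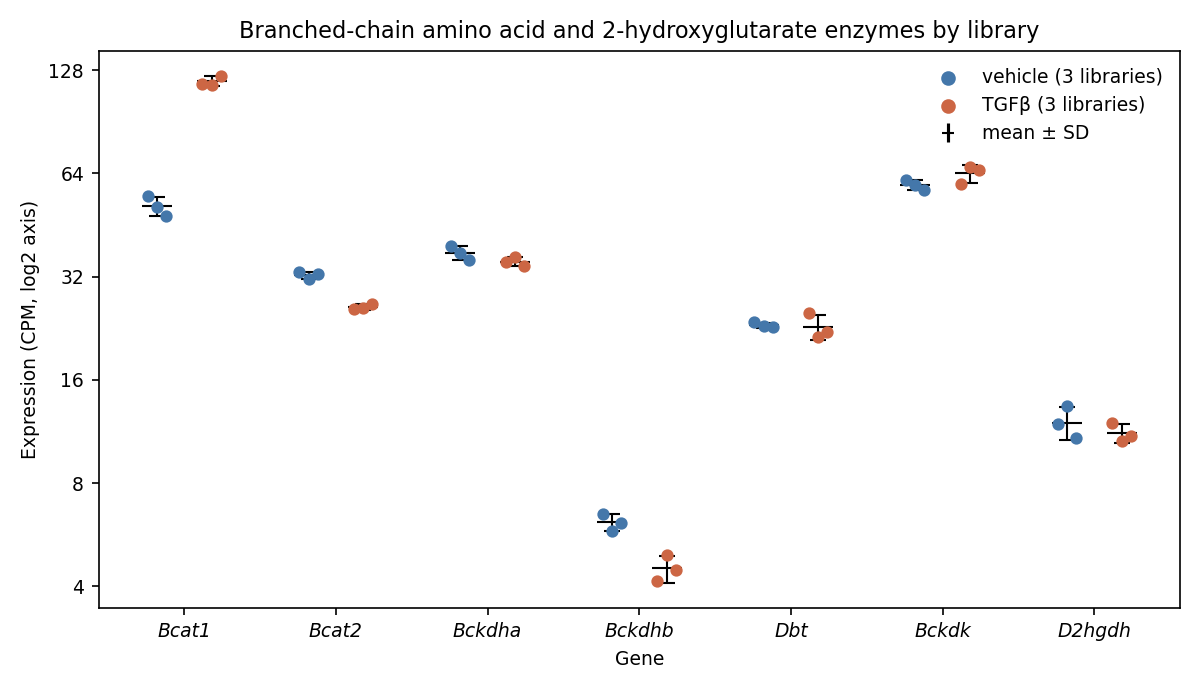
Expression of the 7 enzymes in each library, in CPM on a log2 axis, with 1 point per library (3 vehicle, 3 TGFβ) and black bars for the mean ± SD. Bcat1 was higher in each TGFβ library (116 to 123 CPM) than in each vehicle library (48.2 to 54.9 CPM), Bcat2 and Bckdhb were lower with TGFβ without overlap, and the points of the other 4 enzymes overlapped.

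Bcat1 lies on chromosome 6 (GRCm38, chr6:144993835-145076184, minus strand) and encodes the cytosolic aminotransferase. Its 3 vehicle libraries held 1747, 1516 and 1438 counts, or 54.9, 51.1 and 48.2 CPM. The 3 TGFβ libraries held 3195, 3229 and 3514 counts, or 117, 116 and 123 CPM. The lowest TGFβ value was well above the highest vehicle value, and the spread inside each group was small. The mean was 51.4 ± 3.36 CPM in vehicle and 119 ± 4.11 CPM with TGFβ (SD, n = 3), a log2 fold change of 1.21 (SE 0.06, 95% interval 1.08 to 1.33), or 2.31-fold (95% interval 2.11 to 2.52), with an edgeR adjusted p of 8.51e-06. Only 4.95% of all tested genes had a larger log2 fold change in either direction. Bcat1 ranked 267 from the top of the 14334 tested genes.

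Bcat2 (chr7:45570153-45589711, plus strand), which encodes the mitochondrial aminotransferase, went the other way. It stood at 33.0, 31.5 and 32.6 CPM in the vehicle libraries and at 25.7, 26.0 and 26.7 CPM in the TGFβ libraries. All TGFβ values were below all vehicle values. The means were 32.3 ± 0.76 and 26.1 ± 0.481 CPM (SD, n = 3), and the log2 fold change was -0.31 (SE 0.04, 95% interval -0.41 to -0.21, edgeR adjusted p = 0.00123). This was a fall to 0.808 of the vehicle level, and 35.6% of tested genes had a change of larger size.

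Because both aminotransferases catalyse one reaction in different compartments, their balance was computed in each library from counts per kb of exon, where the scaling between libraries cancels. Bcat1 made up 41.1%, 40.4% and 38.3% of the summed aminotransferase level in the vehicle libraries. It made up 65.5%, 65.1% and 65.9% in the TGFβ libraries. The more abundant transcript per kb was thus Bcat2 in each vehicle library and Bcat1 in each TGFβ library. The mean share was 39.9% ± 1.48 in vehicle and 65.5% ± 0.423 with TGFβ, a difference of 25.6 percentage points (exact permutation p = 0.1, two-sided, which is the lowest that a comparison of 3 with 3 allows). The order of the genes in vehicle was reversed only with the shortest of the lengths used. The shortest annotated coding transcripts (402 bases for Bcat1, 486 for Bcat2) are far below the merged exon lengths (9322 and 3900 bases). With them the share was 65.7% in vehicle and 84.6% with TGFβ. With the longest (7833 and 2081 bases) it was 29.7% and 54.7%. The log2 ratio of Bcat1 to Bcat2 was -0.59 ± 0.09 in vehicle and 0.92 ± 0.03 with TGFβ (SD, n = 3), and this difference of 1.52 does not depend on the lengths.

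The 250 bases in front of the starts of the 3 enzymes that passed the threshold are printed to show what lies before genes that moved in opposite directions, from RefSeq's promoter table on GRCm38.p6. Of the 7 enzymes, 6 had an entry there, with 9 starts in all. Capitals mark matches to any of 6 motifs searched on both strands: CACGTG (an E-box, the letters bound by MYC), TGATGNAA (an ATF4 element), CCACCC (a KLF box), GTCTAGAC (a SMAD palindrome), TGACTCA (an AP-1 site) and CCAAT. Each of Bcat1, Bcat2 and Bckdhb has a pair of annotated starts, and the counts do not separate them. For Bcat1 the first window is chr6:145076158-145076407 and the second chr6:145048813-145049062, both on the minus strand. The Bcat2 window is its first start, chr7:45569903-45570152, and the Bckdhb window its first start, chr9:83924887-83925136, both on the plus strand.
Bcat1, start 1: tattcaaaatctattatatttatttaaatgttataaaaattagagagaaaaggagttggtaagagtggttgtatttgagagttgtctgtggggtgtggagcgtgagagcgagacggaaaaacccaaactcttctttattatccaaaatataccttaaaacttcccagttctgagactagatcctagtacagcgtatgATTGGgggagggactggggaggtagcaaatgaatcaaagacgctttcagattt
Bcat1, start 2: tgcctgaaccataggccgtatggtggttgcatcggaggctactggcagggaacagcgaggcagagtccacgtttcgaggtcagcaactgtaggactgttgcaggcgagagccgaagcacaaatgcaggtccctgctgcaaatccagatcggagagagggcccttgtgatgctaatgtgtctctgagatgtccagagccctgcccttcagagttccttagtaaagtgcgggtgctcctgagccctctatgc
Bcat2, start 1: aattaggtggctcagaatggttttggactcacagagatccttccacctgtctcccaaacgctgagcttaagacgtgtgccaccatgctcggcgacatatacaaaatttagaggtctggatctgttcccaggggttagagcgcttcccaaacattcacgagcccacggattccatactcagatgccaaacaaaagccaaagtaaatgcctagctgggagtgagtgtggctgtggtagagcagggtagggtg
Bckdhb, start 1: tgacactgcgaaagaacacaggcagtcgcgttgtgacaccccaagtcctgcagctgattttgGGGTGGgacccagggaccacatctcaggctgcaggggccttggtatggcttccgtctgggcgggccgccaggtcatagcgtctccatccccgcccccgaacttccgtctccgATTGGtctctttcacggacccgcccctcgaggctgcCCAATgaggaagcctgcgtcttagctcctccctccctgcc
The Bcat1 window at start 1 held 1 match, CCAAT on the opposite strand from -53 to -49 (counted from the base before the start as -1), and the window at start 2 held 0. Bcat2 held 0 matches at either start. At its first start Bckdhb held CCACCC on the opposite strand from -188 to -183, CCAAT on the opposite strand from -76 to -72 and CCAAT on its own strand from -40 to -36. The window at its second start, chr9:83948531-83948780, is not printed, held 0 matches and had a GC content of 36.4%. Enzymes that did not pass the threshold held matches too, in windows not printed. D2hgdh held CCACCC on the opposite strand from -219 to -214 and from -62 to -57, and on its own strand from -10 to -5. Bckdk held CCAAT on its own strand from -119 to -115. Among all 32817 promoter windows of this length, 33.8% held CCAAT and 28.1% held CCACCC, so these matches are common. The other motifs, held by 6.02% (CACGTG), 4.46% (TGACTCA), 3.45% (TGATGNAA) and 0.168% (GTCTAGAC) of all windows, were in none of the 9 windows of the enzymes. GC content was 37.6% and 56.4% in the Bcat1 windows, 50.4% in the Bcat2 window and 63.2% in the Bckdhb window, against a median of 52.4% over all windows. A match is a run of letters and says nothing of binding.

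Of the subunits of the keto acid dehydrogenase complex among the 7 enzymes, the transcript of Bckdhb fell, and Bckdha and Dbt did not pass the threshold. Dld, a subunit outside the 7, rose and is given below. Bckdhb (chr9:83925145-84124240, plus strand), the β chain of E1, held 207, 172 and 183 counts in vehicle and 113, 138 and 127 counts with TGFβ. This was 6.50, 5.80 and 6.13 CPM in vehicle and 4.13, 4.94 and 4.45 CPM with TGFβ, every TGFβ library lying below every vehicle library. The mean went from 6.15 ± 0.353 to 4.51 ± 0.408 CPM (SD, n = 3), a log2 fold change of -0.45 (SE 0.11, 95% interval -0.70 to -0.20) with an edgeR adjusted p of 0.0127. It was the enzyme with the fewest counts and the widest interval of the 7.

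Bckdha (chr7:25629946-25658981, minus strand), the α chain of E1, stood at 39.2, 37.6 and 35.7 CPM in vehicle and 35.4, 36.5 and 34.3 CPM with TGFβ, and the groups overlapped. Its log2 fold change was -0.08 (95% interval -0.20 to 0.03, edgeR adjusted p = 0.226), which leaves room for a fall to 0.871 of the vehicle level. Its span overlaps B3gnt8 on the opposite strand, a gene with 18.2% as many counts that rose with TGFβ (332 counts in vehicle, 832 with TGFβ). Whether counting used strand is not given in the sources used here, so the values of both genes carry that uncertainty. Dbt (chr3:116513070-116549981, plus strand), the E2 acyltransferase, was at 23.6, 23.0 and 22.8 CPM in vehicle and 25.0, 21.4 and 22.1 CPM with TGFβ. The TGFβ libraries lay on both sides of the vehicle libraries, and the log2 fold change was -0.02 (95% interval -0.18 to 0.14, edgeR adjusted p = 0.837).

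Since the chains of E1 assemble together, their ratio was also followed inside each library. The log2 ratio of Bckdha to Bckdhb per kb was 2.52, 2.62 and 2.47 in vehicle and 3.03, 2.81 and 2.87 with TGFβ. It was higher in all TGFβ libraries, by 0.37 on average, from 5.80-fold to 7.48-fold (exact permutation p = 0.1). The folds rest on merged exon length, while the difference does not depend on the lengths. The log2 ratio of Dbt to Bckdhb was 1.02 ± 0.07 in vehicle and 1.45 ± 0.24 with TGFβ (SD, n = 3), also without overlap (exact permutation p = 0.1). The ratio of Dbt to Bckdha overlapped between groups and differed by 0.06 on the log2 scale (exact permutation p = 0.6).

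Bckdk (chr7:127904082-127910221, plus strand), the kinase that switches the complex off, did not pass the threshold. Its vehicle libraries were at 61.3, 59.2 and 57.1 CPM and its TGFβ libraries at 59.6, 66.9 and 65.4 CPM. Of the TGFβ libraries, 1 lay within the vehicle range and the others above it. The log2 fold change was 0.11 (SE 0.05, 95% interval -0.01 to 0.24, edgeR adjusted p = 0.138). Without the TGFβ library at 59.6 CPM it was 0.16 with an edgeR adjusted p of 0.0423, so whether Bckdk passed rests on that library.

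Dld is a further subunit of the complex and Ppm1k acts on it, and neither is among the 7 enzymes. Dld, the E3 dehydrogenase shared with other keto acid dehydrogenases, rose by 0.15 on the log2 scale (edgeR adjusted p = 0.0114). Ppm1k, the phosphatase that opposes Bckdk, was at 8.33, 8.53 and 7.24 CPM in vehicle and 6.87, 6.59 and 7.19 CPM with TGFβ, a log2 fold change of -0.22 that missed the threshold (edgeR adjusted p = 0.0952). The log2 ratio of Bckdk to Ppm1k per kb was 3.58, 3.50 and 3.68 in vehicle and 3.82, 4.05 and 3.89 with TGFβ. The ratio of kinase to phosphatase transcripts was therefore higher in all 3 TGFβ libraries than in any vehicle library. The difference was 0.33 on the log2 scale, or from 12.0-fold to 15.1-fold (exact permutation p = 0.1). Neither gene passed the threshold alone. The folds rest on merged exon length, while the difference does not depend on the lengths. Only RNA was measured in these libraries, and not protein or the activity of the complex. Over the 6 ratios and shares compared inside libraries, Benjamini-Hochberg adjustment raised the exact permutation p of 0.1 to 0.12 for the 5 without overlap. Those 5 are not separate results. The Bcat1 share restates the ratio of Bcat1 to Bcat2, and the ratios of Bckdha and of Dbt to Bckdhb both hold Bckdhb. Among single tested genes, 53.3% were without overlap.

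**Figure D2:**
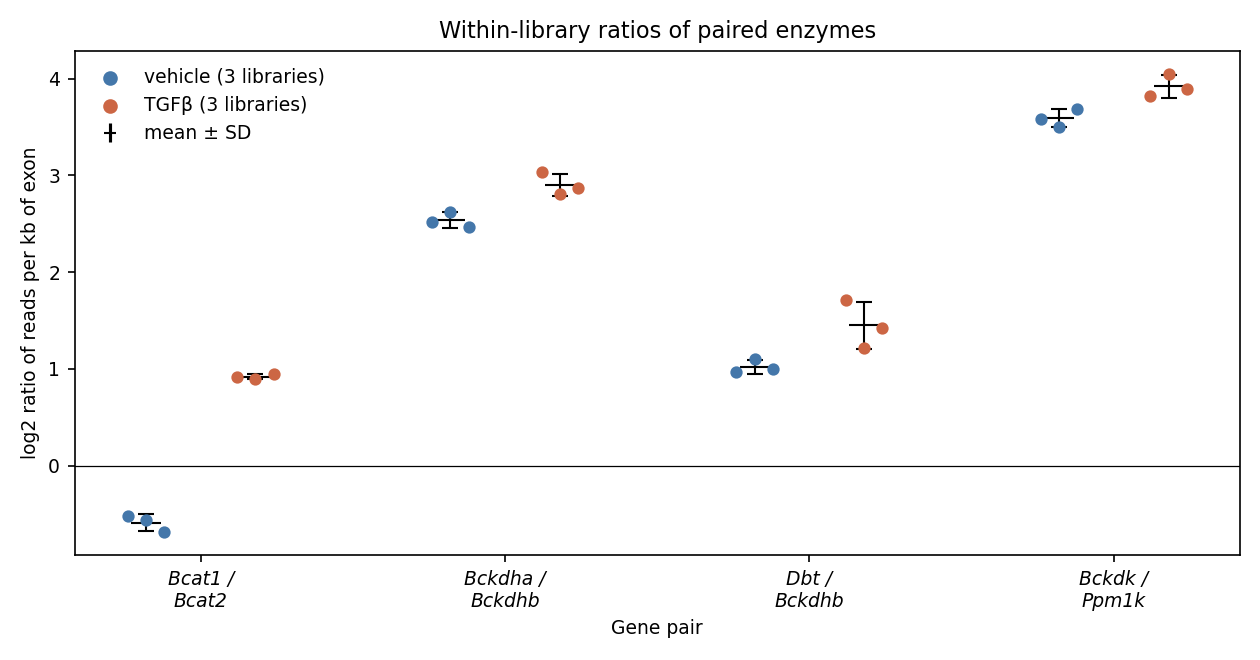
Log2 ratio of reads per kb of exon for 4 pairs of genes in each library, with 1 point per library (3 vehicle, 3 TGFβ) and black bars for the mean ± SD. Bcat1 over Bcat2 averaged -0.59 in vehicle and 0.92 with TGFβ, and Bckdha and Dbt over Bckdhb and Bckdk over Ppm1k were also higher with TGFβ without overlap.

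D2hgdh (chr1:93824909-93852348, plus strand) was at 11.9, 13.4 and 10.8 CPM in vehicle and 12.0, 10.6 and 11.0 CPM with TGFβ. The groups overlapped, and the log2 fold change was -0.11 (SE 0.10, 95% interval -0.33 to 0.12, edgeR adjusted p = 0.413), so a fall to 0.797 or a rise to 1.08 of the vehicle level lies inside the interval. Of its windows of 75 bases, the read length, 21.2% also occur in another gene, most often Gm18666, which was listed at 0 in all libraries but 1, so reads there could have been split or dropped.

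In level per kb of merged exon, the order of the enzymes in vehicle was Bckdha at 19.7 ± 0.901, Bckdk at 16.0 ± 0.571, Bcat2 at 8.29 ± 0.195, Dbt at 6.91 ± 0.118, Bcat1 at 5.51 ± 0.36, Bckdhb at 3.41 ± 0.196 and D2hgdh at 2.81 ± 0.304 CPM per kb (SD, n = 3). No neighbours in that order overlapped. With TGFβ, Bcat1 stood in the third place, at 12.7 ± 0.441 CPM per kb. Bckdha and Bckdk at 18.6 and 17.3, Dbt and Bcat2 at 6.81 and 6.70, and D2hgdh and Bckdhb at 2.61 and 2.50 CPM per kb then overlapped as neighbours. Over the 6 libraries together, Bckdha and Bckdk stood at the 83.2 and 81.1 percentiles of level per kb among 14322 tested genes, and Bckdhb and D2hgdh at the 41.8 and 39.9 percentiles. These places and percentiles rest on merged exon length. With the shortest annotated coding transcripts, Bcat1 lay above Bcat2 in vehicle as well.

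In the 4 sets of steps that break down the acyl-CoA products of the complex, every gene that passed the threshold was lower with TGFβ. Of their 16 genes, 9 were lower with TGFβ, 0 were higher and 7 did not pass, with a median log2 fold change of -0.21. Over all tested genes 20.1% were lower, 20.5% were higher and the median was 0. The libraries of the groups did not overlap for 8 of the 16, as was the case for 53.3% of all tested genes. All 4 isoleucine genes fell, led by Acadsb, the short/branched-chain acyl-CoA dehydrogenase (-0.41), and Acat1, the mitochondrial thiolase (-0.30), followed by Hsd17b10 (-0.23) and Echs1 (-0.20). The span of Acadsb overlaps Fgfr2 on the opposite strand, a gene with 16.6% as many counts (2726 in vehicle, 1447 with TGFβ). That of Echs1 overlaps Paox on the opposite strand (8.33% as many counts), so reads of these genes may be shared. Of the 4 leucine genes, Ivd, the isovaleryl-CoA dehydrogenase, fell by 0.69 on the log2 scale and Auh by 0.30, while Mccc1 (0.05) and Mccc2 (-0.05) did not pass. Auh passed narrowly (edgeR adjusted p = 0.0445), and its libraries overlapped between groups. Each gene was counted in a single set only, Echs1 in that of isoleucine. Of the 4 genes listed under valine only Aldh6a1, the methylmalonate semialdehyde dehydrogenase, passed. It stood at 59.0, 56.3 and 55.7 CPM in vehicle and 31.0, 31.0 and 31.1 CPM with TGFβ (log2 fold change -0.88). Of the 4 genes of the propionate step, Pcca (-0.45) and, narrowly, Mcee (-0.25, edgeR adjusted p = 0.0431) fell. The span of Pcca, introns included, overlaps that of Ggact on the opposite strand, a gene with 70.9% as many counts. Whether exons overlap was not examined for any overlapping span given here, so how many reads may be shared is not known. All of these calls are by edgeR at an adjusted p under 0.05 over all genes.

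Of 5 carriers of branched-chain amino acids, 2 rose, 2 fell and 1 did not pass, where 40.7% of all tested genes were called. For each of the 5 the libraries of the groups did not overlap, as was the case for 53.3% of all tested genes. Slc7a5, the light chain of the exchanger LAT1, rose by 0.87 on the log2 scale, from between 180 and 224 CPM to between 362 and 385 CPM. Slc3a2, its heavy chain, rose by 0.49. The facilitative carriers Slc43a1 and Slc43a2 fell by 0.61 and 1.25. Slc25a44, the mitochondrial carrier of these amino acids, was at 35.5 to 36.8 CPM in vehicle and 37.7 to 39.9 CPM with TGFβ, without overlap, but did not pass (log2 fold change 0.09, edgeR adjusted p = 0.151).

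Among 11 genes listed with 2-hydroxyglutarate, 6 rose, 2 fell and 3 did not pass, with a median log2 fold change of 0.15. Over all tested genes 20.5% were higher, 20.1% were lower and the median was 0. The list was not confined to the D form that D2HGDH oxidizes, nor to enzymes that form 2-hydroxyglutarate. Idh3a, for instance, encodes a subunit of the NAD-dependent isocitrate dehydrogenase. Adhfe1, the transhydrogenase that forms D-2-hydroxyglutarate, fell the furthest, from 17.3, 23.1 and 27.7 CPM in vehicle to 4.83, 4.83 and 4.91 CPM with TGFβ (log2 fold change -2.22, SE 0.17, edgeR adjusted p = 6.61e-05). Idh2, the mitochondrial NADP-dependent isocitrate dehydrogenase, fell by 0.47, while the cytosolic Idh1 was at -0.05 (edgeR adjusted p = 0.629). Idh3a (0.57), Mdh2 (0.45), Phgdh (0.34) and Ldha (0.29) rose most. Idh3b (-0.01, edgeR adjusted p = 0.857) and Idh3g (0.10, edgeR adjusted p = 0.162), which encode further subunits of the enzyme of Idh3a, did not pass. The span of Idh3b overlaps Nop56 on the opposite strand (47.3% as many counts). Phgdh shares 47.4% of its 75-base windows with other genes. Of the 3 electron acceptors that serve D2HGDH and the acyl-CoA dehydrogenases, Etfdh rose by 0.24 and Etfa fell by 0.20. Etfb did not pass (-0.12, with 66.3% of its windows shared). The span of Etfdh overlaps 4930579G24Rik on the opposite strand (8.78% as many counts).

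The 7 enzymes that join glutamate and α-ketoglutarate, the other substrate pair of the aminotransferases, also split, with 3 higher, 1 lower and 3 not past, where 40.7% of all tested genes were called. Gpt2, the mitochondrial alanine aminotransferase, rose by 0.69, Got1, the cytosolic aspartate aminotransferase, by 0.68 and Glud1, glutamate dehydrogenase, by 0.14. Oat, ornithine aminotransferase, fell by 0.75, from between 404 and 417 CPM to between 240 and 248 CPM. The span of Oat overlaps Fgfr2 on the same strand, a gene with 7.19% as many counts (2726 in vehicle, 1447 with TGFβ). Got2 was at 0.01 on the log2 scale (edgeR adjusted p = 0.799), with 23.6% of its windows shared. Of 3 transcription regulators listed with this pathway, Klf15, known to promote branched-chain amino acid catabolism in the heart, was at 20.1, 21.2 and 22.8 CPM in vehicle and 6.98, 8.16 and 9.09 CPM with TGFβ. It fell by 1.40 on the log2 scale. Ppargc1a, a coactivator of mitochondrial genes, also fell, but was barely detected in either group (0.438 to 0.771 CPM in vehicle, 0 to 0.143 CPM with TGFβ). Myc was at 0.19 (edgeR adjusted p = 0.102). Over the 47 genes of all these lists, 13 rose, 17 fell and 17 did not pass, where 20.5% of all tested genes rose and 20.1% fell.

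**Figure D3:**
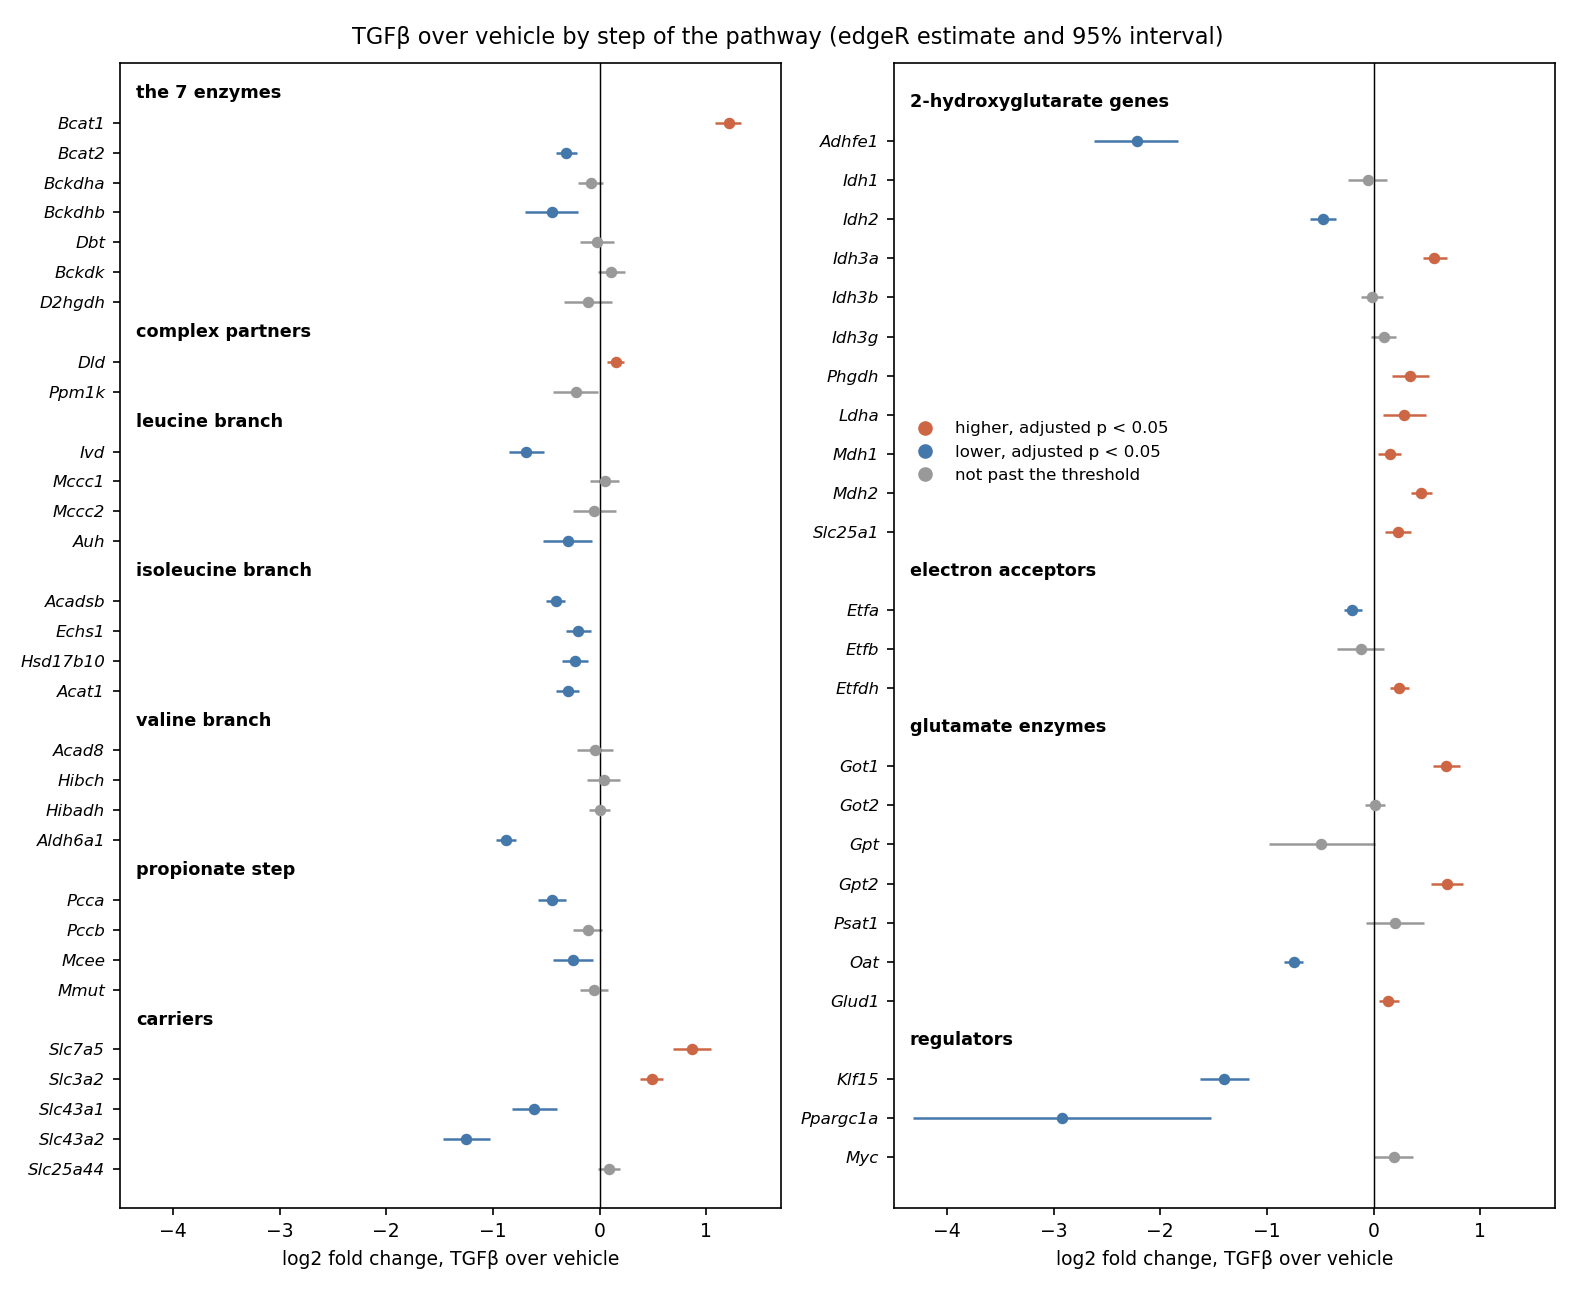
Log2 fold change (TGFβ over vehicle, edgeR) and its 95% interval for the 7 enzymes and 47 other genes of the pathway, grouped by step, with red for higher, blue for lower and grey for not past an adjusted p of 0.05. Bcat1 (1.21) stands to the right of the other genes, the leucine, isoleucine, valine and propionate steps lie at or left of 0.05, and Adhfe1 (-2.22) and Ppargc1a (-2.92) lie furthest to the left.

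The genes whose levels over the 6 libraries were most like those of Bcat1 were sought among 10372 tested genes whose mean reached 5 CPM, by Pearson's r of log2 CPM. P3h1 (r = 0.9997), a prolyl hydroxylase of collagen, came first, then Nars (0.9991), Psmd7 (0.9989), Psma1 (0.9988) and Psmd11 (0.9988). Their log2 fold changes ran from 0.33 to 0.81, smaller than that of Bcat1. Of the 10372 genes, 260 had an r above 0.99 with Bcat1. Each r rests on 6 libraries in 2 groups, so the list is a description only.

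**Figure D4:**
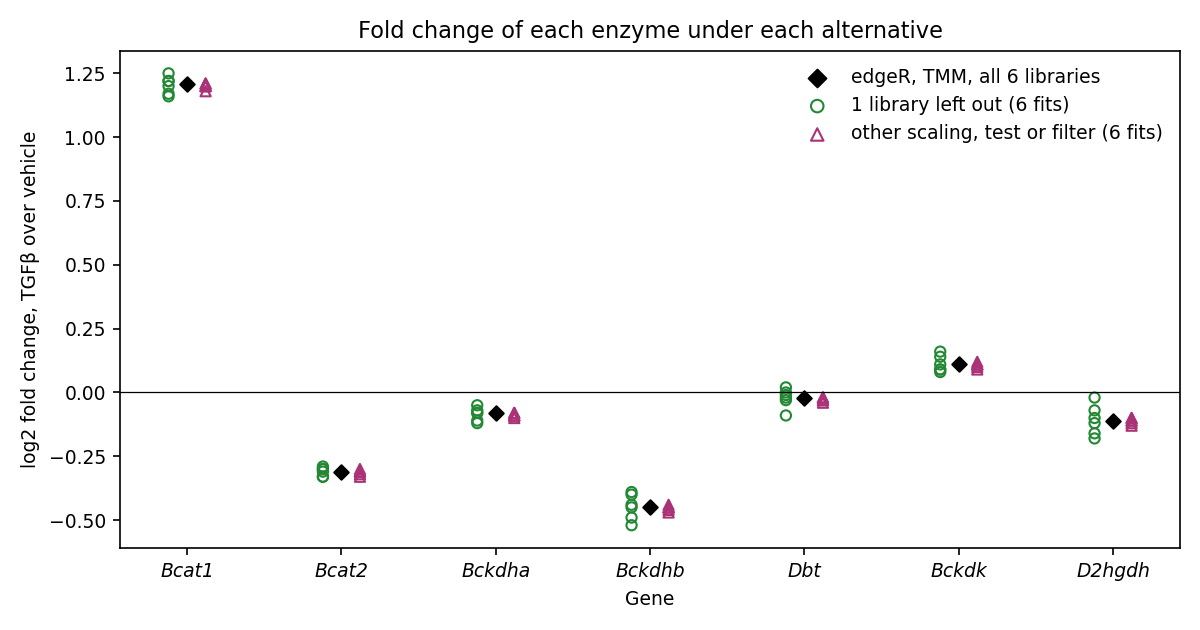
Log2 fold change (TGFβ over vehicle) of each enzyme with all 6 libraries (black diamond), with each library left out in turn (green circles) and under other scalings, tests or filters (purple triangles). Bcat1 stayed between 1.16 and 1.25, Bcat2 between -0.33 and -0.29 and Bckdhb between -0.52 and -0.39, while Dbt lay on both sides of 0.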

How the data were processed

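RNA was measured in 6 libraries (3 vehicle, 3 TGFβ). The authors enriched poly(A) RNA with a stranded kit, read 75 bases from one end of each fragment, aligned to mm10 and deposited unnormalized whole-number counts per gene, with DESeq2 columns (mean, fold change, its error, statistic, p-values) that were not used. The aligner, the counter and its strand setting are not given in the sources used here. Columns name the group but not the replicate number.

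TMM factors, filterByExpr and the quasi-likelihood test came from edgeR 4.0.16 in R 4.3.3, with Benjamini-Hochberg adjustment over 14334 genes and a threshold of 0.05. SE is the log2 fold change over the square root of F. CPM used TMM-scaled library sizes. The biological coefficient of variation was 7.97%. Exon lengths, positions and windows came from GENCODE M21 (GRCm38), which holds 25086 of the 25140 identifiers. Scripts were tested on simulated data. Alternatives used DESeq2 1.42.0 and limma 3.58.1 (voom). Exact permutation tests were two-sided.

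The members and lists were chosen with earlier results of these data known. All members were named, and of each list the genes past the threshold, at most the 4 largest in each direction, with any gene compared with a member. Some genes of the lists and a ratio with one of them are not reported here. Replicates differed by more than counting noise (chi-square per gene 7.95 to 27.1).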

Additional observations from a re-analysis of the deposited data

How the results depend on the processing

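Bcat1, Bcat2 and Bckdhb kept their direction and stayed past an adjusted p of 0.05 under edgeR with other size factors or filters, DESeq2, limma-voom and each library left out. Log2 fold changes ranged from 1.16 to 1.25 for Bcat1, from -0.33 to -0.29 for Bcat2 and from -0.52 to -0.39 for Bckdhb (adjusted p 0.0105 to 0.0427), and Bckdhb missed a threshold of 0.01. Bckdha (-0.12 to -0.05) and D2hgdh (-0.18 to -0.02) kept their direction and did not pass. With a log2 fold change beyond 0.5 also required, 1 of the 7 enzymes was called (Bcat1). Without that requirement, 3 to 4 were called with 1 library left out. Bckdk was the 4th, at 0.16 (adjusted p 0.0423) without the TGFβ library of 27851677 counts; its values with 1 library left out were 0.08 to 0.16. Dbt turned to 0.02 (adjusted p 0.837) without the TGFβ library of 28894151 counts, and ranged from -0.09 to 0.02.

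Over all genes, 3595 were called at 0.01 (1855 higher, 1740 lower), 2316 with a log2 fold change beyond 0.5 (820 higher, 1496 lower) and 4489 to 5481 with 1 library left out, against 5828. The difference in the Bcat1 share was 18.8 points with the shortest coding transcripts, 25.0 with the longest (chosen after seeing the data) and 24.7 to 26.2 with 1 library left out. With 1 library left out, the log2 ratios differed by 0.27 to 0.38 (Bckdk to Ppm1k) and 0.31 to 0.41 (Bckdha to Bckdhb). No paired analysis was possible because the count columns carry no replicate numbers. With 3 libraries a group, exact permutation p cannot go below 0.1, and at 113 to 207 counts Bckdhb had the least depth of the 7 enzymes.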
